A study of Mus musculus with 6 samples.

Results

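The collagen genes measured here were those whose probe carried exactly 1 gene symbol starting with Col, a chain type and a chain number. They comprised 41 genes on 53 probes, out of 18014 genes and 36227 probes on the array. Where a gene had several probes, the brightest one on average over all arrays stands for it. Both groups were 3T3-L1 cells, a mouse preadipocyte line, differentiated with an adipogenic mixture and sampled on day 10 as total RNA. The control group held 3 one-colour CodeLink arrays of cells with the Tet-off plasmid alone, and the other group 3 arrays of cells expressing uncoupling protein 1, UCP1, a mitochondrial proton carrier. The sources used here give neither the promoter of the UCP1 construct nor the number of clones, and do not say that separate cultures lie behind the arrays. The tests therefore measure array-to-array spread, part or all of which may be technical.

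Collagens are secreted trimers whose chains wind around each other as a helix in which glycine recurs at regular steps. Fibrillar types form the banded fibres of the matrix, with type I and type III as the bulk and type V and type XI as minor chains that set where fibres start and how thick they grow. Type IV makes the sheet of the basement membrane that surrounds each adipocyte, type VI makes beaded filaments that are plentiful in fat, and fibril-associated types decorate the fibres. Adipocyte differentiation is known to shift the matrix from a fibrillar towards a basement membrane composition.

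The stretches before the annotated start of 5 fibrillar chain genes are shown for the chain that fell, Col11a1, for Col5a1 and Col5a3, chains of the related type V, and for Col3a1 and Col1a2, of the bulk fibres. They are RefSeq sequence of GRCm38.p6, cut to end where the gene begins, and capitals mark 3 searched motifs on either strand, which are CCAAT for the CCAAT box, the letters TATAAA for the TATA box and the letters GGGCGG for the GC box. They lie at chr3:114030290-114030478 on the plus strand for Col11a1, chr2:27886175-27886380 on the plus strand for Col5a1, chr9:20815118-20815317 on the minus strand for Col5a3, chr1:45311288-45311537 on the plus strand for Col3a1 and chr6:4505368-4505617 on the plus strand for Col1a2.
Col11a1: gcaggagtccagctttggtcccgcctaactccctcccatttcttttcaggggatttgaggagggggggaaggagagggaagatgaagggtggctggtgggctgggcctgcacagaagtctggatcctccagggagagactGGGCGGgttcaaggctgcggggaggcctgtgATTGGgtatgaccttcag
Col5a1: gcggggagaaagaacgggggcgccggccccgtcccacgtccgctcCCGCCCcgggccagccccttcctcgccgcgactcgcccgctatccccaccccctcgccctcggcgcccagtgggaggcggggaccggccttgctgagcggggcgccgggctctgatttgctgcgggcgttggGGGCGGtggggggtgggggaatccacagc
Col5a3: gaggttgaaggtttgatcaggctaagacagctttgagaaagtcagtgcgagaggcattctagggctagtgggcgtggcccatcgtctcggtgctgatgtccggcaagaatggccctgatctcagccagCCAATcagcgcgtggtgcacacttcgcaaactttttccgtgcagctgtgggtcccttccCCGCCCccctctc
Col3a1: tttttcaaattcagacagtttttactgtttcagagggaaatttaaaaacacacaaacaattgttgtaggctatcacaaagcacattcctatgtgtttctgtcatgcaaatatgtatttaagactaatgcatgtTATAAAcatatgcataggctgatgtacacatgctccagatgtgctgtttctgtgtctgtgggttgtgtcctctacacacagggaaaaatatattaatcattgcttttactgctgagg
Col1a2: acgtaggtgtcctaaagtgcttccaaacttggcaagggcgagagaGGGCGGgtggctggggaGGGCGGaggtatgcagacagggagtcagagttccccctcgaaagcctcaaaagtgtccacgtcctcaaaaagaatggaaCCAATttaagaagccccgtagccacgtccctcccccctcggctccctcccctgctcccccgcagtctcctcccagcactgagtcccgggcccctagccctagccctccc

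The Col11a1 stretch held 1 CCAAT and 1 GGGCGG match, and so did the Col5a3 stretch. The Col5a1 stretch held 2 GGGCGG matches and no CCAAT, and the Col1a2 stretch held 1 CCAAT and 2 GGGCGG matches. The Col3a1 stretch held 1 TATAAA match and neither of the other two, with a G and C content of 35.2% against 77.7% for Col5a1 and 60.3% for Col11a1. Promoter windows of 300 bases were found for 33 of the 41 genes, 36 windows in all. GGGCGG was present in 22 of these 36, CCAAT in 13 and TATAAA in 5. Among all 32851 windows of that length the shares were 35.7% for GGGCGG, 37.4% for CCAAT and 13.6% for TATAAA, against 61.1%, 36.1% and 13.9% in the collagen windows. These matches are a description of letters, and the deposited data hold no measurement of factor binding.

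As a check of the labels, the probe of Ucp1 read 0.222, 0.232 and 0.278 on the control arrays and 2.34, 2.02 and 1.54 on the UCP1 arrays, so that log2 intensity rose by 3.00 ± 0.234 (SE; limma, adjusted p = 0.00013). The control readings of Ucp1 were near the 10th percentile of those arrays, 0.167 to 0.175, so the size of its rise depends on the floor, and it was 2.35 with an offset added before log2. Array medians of scaled intensity lay between 1.04 and 1.05, while the 99th percentile was 255 to 279 on control arrays and 185 to 225 on UCP1 arrays. Over all probes 2.83% passed the threshold of an adjusted p under 0.05, 289 higher and 732 lower in UCP1, and that split became 567 higher and 446 lower after quantile normalization. That normalization moved the median difference of genes at or above the median probe from -0.11 to 0.01 on the log2 scale. With limma fitted without its intensity trend no probe passed, although 4951 had an unadjusted p under 0.05, so every call given here rests on that trend. Of the 41 collagen genes 6 had an unadjusted p under 0.05 without the trend and 9 with it, and 3746 of all 18014 genes had one with it.

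Few collagen transcripts differed between UCP1 and control adipocytes beyond the spread of the arrays. Of the 41 genes 1 fell, Col11a1, and 0 rose (limma, Benjamini-Hochberg over all probes). Among all genes, taken by their brightest probe, 4.05% passed the same threshold, 1.13% higher and 2.92% lower, so the collagen count lay near the background. The median difference was -0.06 on the log2 scale over the 41 collagen genes and -0.08 over all genes, and the collagen median became 0.08 after quantile normalization, with 19 collagen genes above 0 and 22 below before it. Groups did not overlap in 10 of the 41 collagen genes, or 24.4%, against 25.2% of all genes.

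Intervals were mostly wider where the signal of the probe was low, and part of this is built into the fit. The intensity trend draws each probe's variance towards that of probes of like signal. Signal alone did not set the width, with an SE of 0.307 for Col4a2, at 4.23 on the log2 scale, and 0.133 for Col4a5, at 1.37. The median level over all probes was 0.03 on the log2 scale, and 27 collagen genes lay at or above it. Of these 27, 26 had a 95% confidence interval that stayed within a change of 1 on the log2 scale, which is 2-fold, in either direction, and the exception was Col11a1. In that brighter set 6.29% of all genes passed the threshold, and groups did not overlap in 32.7% of all genes and in 9 of the 27 collagen genes. Of the 14 dimmer genes only 3 had an interval that narrow, so for the other 11 a change of 2-fold was not excluded by these arrays. Each of these intervals holds for the gene's brightest probe alone. The second Col5a1 probe, also at or above the median, had an interval of -1.33 to -0.66, which reaches beyond a change of 1.

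**Figure D1:**
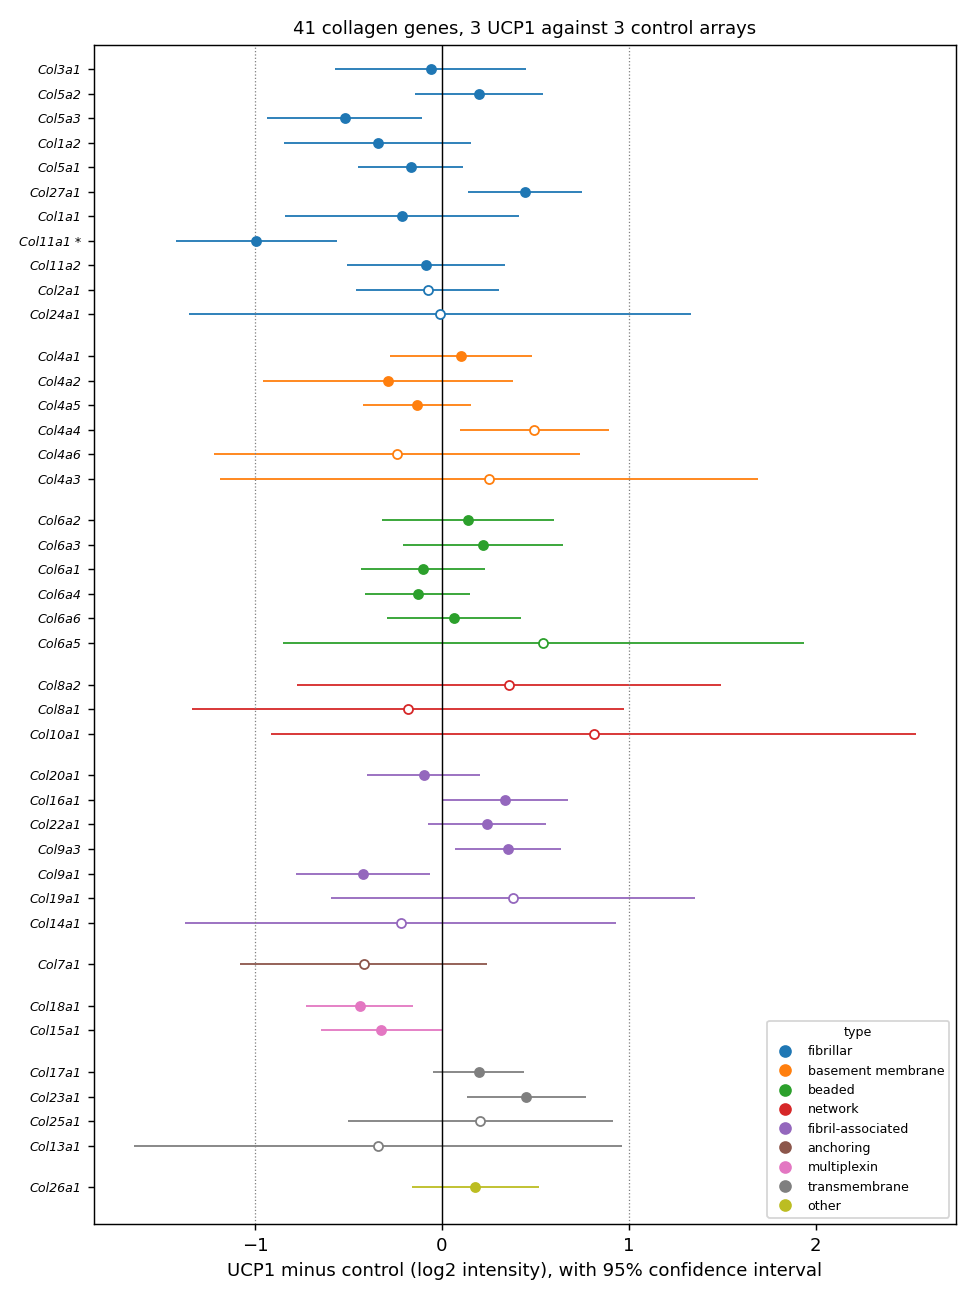
Difference between UCP1 and control in log2 intensity for each of the 41 collagen genes, grouped by type, with the 95% confidence interval from limma as a bar. Filled points are the 27 genes at or above the median probe, open points the 14 dimmer genes, and the asterisk marks Col11a1, whose interval alone among the filled points crosses a dotted line at a change of 1.

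Among the fibrillar types, 1 of 11 genes fell and 0 rose, with a median of -0.09 on the log2 scale, 2 genes above 0 and 9 below. Over all 18014 genes the median was -0.08, with 7186 above 0 and 10828 below. The counts for each collagen type stand against that split. Col11a1 encodes a chain of type XI collagen, which lies inside the fibres of cartilage and, together with type V, of other tissues. Its scaled intensity was 9.23, 10.0 and 7.11 on the control arrays and 5.76, 3.21 and 4.51 on the UCP1 arrays. All 3 UCP1 readings lay below all 3 control readings. The mean went from 8.79 ± 1.51 (SD, n = 3) to 4.50 ± 1.28 (SD, n = 3), and the difference of the log2 means was -0.99 ± 0.197 (SE; limma, adjusted p = 0.0233). The exact permutation test, two-sided, gave p = 0.1, the smallest that 3 against 3 arrays can give. The call was lost without the intensity trend (adjusted p = 0.277), without control array 1 (0.0807), without control array 2 (0.078) and without UCP1 array 3 (0.133), with a range of 0.00452 to 0.277 over all alternatives, while the difference stayed between -1.19 and -0.77 in every alternative run.

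Type V chains, which can form mixed molecules with Col11a1, gave unlike readings. Col5a1, the chain common to most type V molecules, had 2 probes that differed. The brighter, which the platform annotation ties to a RefSeq transcript, read 37.9, 34.3 and 37.5 in controls and 31.1, 37.8 and 29.2 in UCP1, with overlapping groups and a difference of -0.17 (95% interval -0.45 to 0.12). The dimmer, tied to another GenBank record, read 4.85, 5.17 and 6.59 in controls and 3.24, 2.49 and 2.59 in UCP1, without overlap. That dimmer Col5a1 probe fell by 1.00 on the log2 scale (limma, adjusted p = 0.00727), which was lost without UCP1 array 3 (adjusted p = 0.0735) and without the trend (adjusted p = 0.221). When the probes of each gene were averaged, Col5a1 passed the threshold with -0.58 (limma, adjusted p = 0.0221). Which Col5a1 transcripts either probe detects was not analysed here.

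Col5a2, the usual partner of Col5a1, went the other way by a small amount. It read 143, 133 and 145 in controls and 186, 149 and 151 in UCP1, a difference of 0.20 (95% interval -0.14 to 0.54) that did not pass, although the groups did not overlap. Col5a3, the remaining type V chain measured, with a narrower tissue range, read 75.3, 60.4 and 67.8 in controls. On the UCP1 arrays Col5a3 read 65.3, 38.9 and 41.1, so that array 1 alone lay among the controls. Its difference was -0.52 ± 0.189 (SE) (limma, adjusted p = 0.172), and without UCP1 array 1 it was -0.76 and passed (adjusted p = 0.0121). Col11a2, the second type XI chain, read 1.43, 1.37 and 1.91 in controls and 1.28, 1.85 and 1.33 in UCP1, a difference of -0.09 with overlapping groups.

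**Figure D2:**
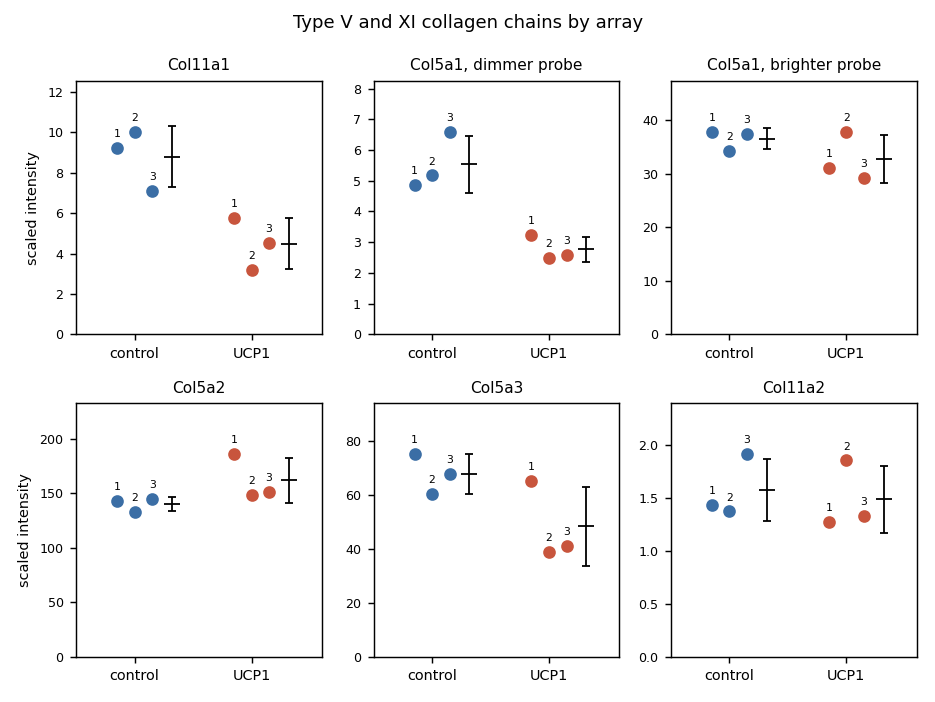
Scaled intensity on each array (points, numbered by array) with the group mean and SD (bars) for the chains of types V and XI, on linear axes from 0. Col11a1, with group means of 8.79 and 4.50, the dimmer Col5a1 probe and Col5a2 show no overlap between groups, while the brighter Col5a1 probe, Col5a3 and Col11a2 overlap.

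The bulk fibrillar chains did not pass the threshold. Col3a1, the single chain of type III, read 734, 599 and 532 in controls and 669, 604 and 511 in UCP1. The ranges nearly coincide, with a difference of -0.06 (95% interval -0.57 to 0.45), and the highest reading on any array lay between 683 and 950. Col1a1 and Col1a2 together make type I. Col1a1 read 20.6, 11.3 and 13.2 in controls and 8.57, 20.7 and 11.1 in UCP1, so that the spread within a group exceeded the difference of -0.21 ± 0.286 (SE). Col1a2 read 55.8, 51.1 and 40.0 in controls and 27.6, 57.4 and 35.2 in UCP1. Its difference was -0.34 (95% interval -0.84 to 0.16), and without UCP1 array 2 it was -0.64 (limma, adjusted p = 0.0499).

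Col1a1 and Col1a2 shared this pattern over the UCP1 arrays with the basement membrane chain Col4a2, which read 10.1, 28.5 and 17.1 there. The reading on UCP1 array 2 was 2.42 times that on array 1 for Col1a1, 2.08 times for Col1a2 and 2.83 times for Col4a2. A ratio of at least 2 between these arrays was found in 1.35% of 10768 genes at or above the median probe. The other 24 collagen genes of that brightness had ratios of 1.45 or less, and 12 of the 27 were highest on UCP1 array 1, 9 on array 2 and 6 on array 3. These 3 genes were picked out after their values were seen.

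Col27a1, a fibrillar chain of cartilage and other tissues, was also singled out after its values were seen. It read 21.1, 22.2 and 25.1 in controls and 37.5, 28.5 and 27.7 in UCP1, with no overlap and a difference of 0.45 ± 0.14 (SE) (limma, adjusted p = 0.114). After quantile normalization the difference was 0.58 and passed (adjusted p = 0.0143), while its other probe differed by 0.06. The cartilage chain Col2a1 read 0.962 to 1.18 in controls and 0.954 to 1.06 in UCP1, and Col24a1, a chain of developing bone, read 0.115 to 0.216 and 0.127 to 0.219.

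The basement membrane chains gave 0 calls among 6 genes, with 3 above 0, 3 below and a median of -0.02, which became 0.13 after quantile normalization. Col4a1 and Col4a2 form the common type IV molecule, and their genes lie head to head on chromosome 8. Col4a1 read 181, 139 and 159 in controls and 198, 151 and 164 in UCP1, a difference of 0.10 (95% interval -0.28 to 0.48). Col4a2 read 28.8, 18.7 and 16.5 in controls, with the UCP1 readings given above, and differed by -0.29 (95% interval -0.96 to 0.38). Both overlapped between groups. On the control arrays both chains were highest on array 1, while on the UCP1 arrays Col4a2 was lowest on array 1, where Col4a1 was highest.

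The chains of the specialised type IV networks, found in kidney, lung and a few other basement membranes, were near or below the median probe, except Col4a5. Col4a5 read 3.03, 2.60 and 2.53 in controls and 2.55, 2.30 and 2.58 in UCP1, a difference of -0.13. Col4a4 read 0.739, 0.786 and 0.802 in controls and 1.09, 0.982 and 1.22 in UCP1, without overlap, but its 0.50 ± 0.182 (SE) did not pass (limma, adjusted p = 0.178). Col4a3 and Col4a6 differed by 0.25 and -0.24, each with an interval wider than 1 on at least 1 side. The multiplexins Col15a1 and Col18a1, which sit at the basement membrane zone and release the fragments restin and endostatin, had lower group means than their controls, and neither passed the threshold. Col18a1 read 38.4, 33.3 and 38.1 in controls and 31.3, 24.6 and 25.4 in UCP1, with no overlap. Its difference was -0.44 ± 0.131 (SE) (limma, adjusted p = 0.0979), and without UCP1 array 1 it was -0.55 and passed (adjusted p = 0.021). Col15a1 read 7.92, 6.06 and 7.34 in controls and 4.99, 6.82 and 5.29 in UCP1, with overlapping groups and a difference of -0.32 with adjusted p = 0.291 (limma).

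Among the beaded type VI chains 0 of 6 passed, with 4 above 0 and 2 below and a median of 0.10. Col6a1, Col6a2 and Col6a3 form the classical type VI molecule. Col6a1 read 139, 137 and 117 in controls and 124, 132 and 110 in UCP1. Col6a2 read 392, 352 and 395 in controls and 497, 435 and 339 in UCP1. Col6a3, whose last domain is cut off as endotrophin, read 197, 170 and 167 in controls and 265, 165 and 203 in UCP1. In all of these chains the groups overlapped, with differences of -0.10 (95% interval -0.43 to 0.23), 0.14 (-0.32 to 0.60) and 0.22 (-0.21 to 0.65). After quantile normalization Col6a2 reached 0.56 and passed (limma, adjusted p = 0.0416), and the beaded median became 0.33. The later-named chains Col6a4, Col6a5 and Col6a6 differed by -0.13, 0.54 and 0.06, of which Col6a5 was dim and rested on 1 reading of 1.77 on UCP1 array 2 beside 0.342 and 0.183 on the others.

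**Figure D3:**
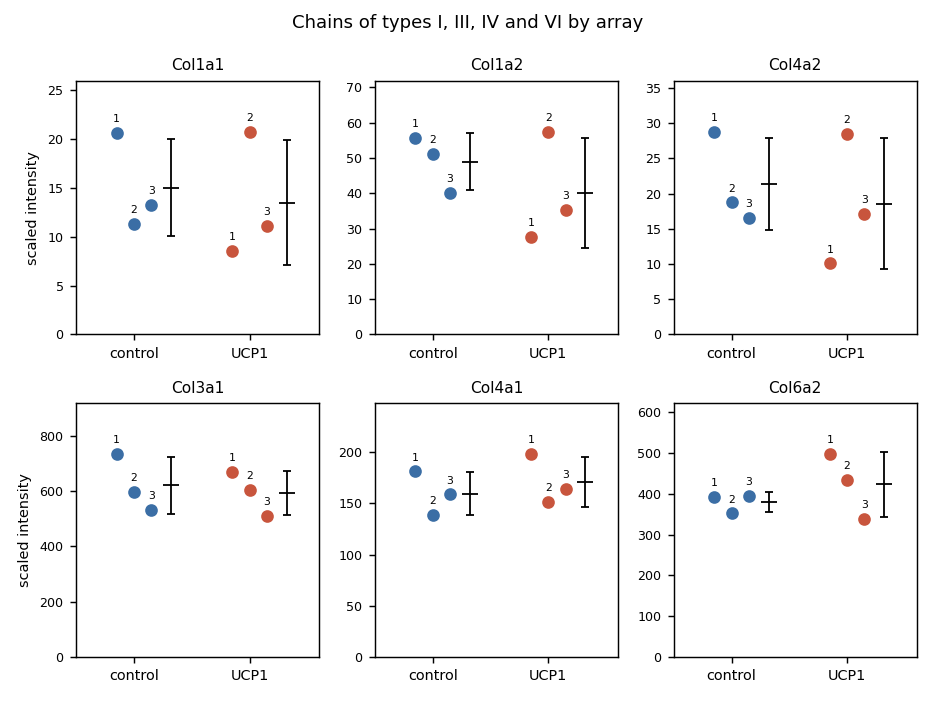
Scaled intensity on each array (points, numbered by array) with the group mean and SD (bars) for chains of types I, III, IV and VI, on linear axes from 0. Col1a1, Col1a2 and Col4a2 are highest of the UCP1 arrays on array 2, while Col3a1, Col4a1 and Col6a2 are highest on array 1, and the groups overlap in all 6 panels.

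The network types, which make lattices in vessels, cornea and growing cartilage, gave 0 calls among 3 genes. Col8a1, Col8a2 and Col10a1 were all below the median probe, with readings from 0.0731 to 0.363 over the 6 arrays. Their differences of -0.18, 0.36 and 0.81 had intervals reaching beyond 1, the widest being -0.91 to 2.54 for Col10a1, the chain of hypertrophic cartilage.

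Fibril-associated types gave 0 calls among 7 genes, with a median of 0.24, 4 above 0 and 3 below. Col9a1 and Col9a3, chains of the type IX molecule that coats cartilage fibres, moved apart without passing. Col9a1 read 2.14, 2.65 and 2.19 in controls and 2.10, 1.50 and 1.64 in UCP1, at -0.42 ± 0.165 (SE) (limma, adjusted p = 0.209), and its dimmer probe was at -0.95. Col9a3 read 1.83, 1.84 and 1.94 in controls and 2.27, 2.49 and 2.44 in UCP1, at 0.35 ± 0.131 (SE) (limma, adjusted p = 0.178). In both genes the groups did not overlap. Col16a1 read 6.78, 5.05 and 4.55 in controls and 7.23, 5.97 and 7.28 in UCP1, at 0.34 (95% interval -0.00 to 0.67). Col20a1, at -0.10, and Col22a1, at 0.24, overlapped between groups, as did the dim Col14a1, at -0.22, and Col19a1, at 0.38. The dimmer probes of Col14a1 and Col19a1 went the other way, at 0.62 and -0.72, with overlapping groups. The only probe naming Col9a2 also names Drg2 and was left out. Col12a1 and Col28a1 were not analysed here.

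The remaining types also gave 0 calls. Of the membrane-spanning collagens, Col17a1, the anchor of epithelial hemidesmosomes, read 9.50, 9.15 and 9.33 in controls and 11.7, 9.76 and 10.7 in UCP1. Col23a1 read 1.40, 1.52 and 1.43 in controls and 1.78, 2.12 and 2.07 in UCP1. Groups did not overlap in Col17a1, at 0.20, or in Col23a1, at 0.45 ± 0.145 (SE) (limma, adjusted p = 0.124), and the second Col23a1 probe was at 0.33. Col23a1 passed when the brighter probes alone were tested (adjusted p = 0.0443). Col13a1 and Col25a1 were dim, at -0.34 and 0.21. The second Col25a1 probe, dimmer still, was at -1.16 with no overlap between groups and did not pass (limma, adjusted p = 0.387). Col7a1, which forms anchoring fibrils under epithelia, was at -0.42 with overlapping groups, and Col26a1 was at 0.18.

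**Figure D4:**
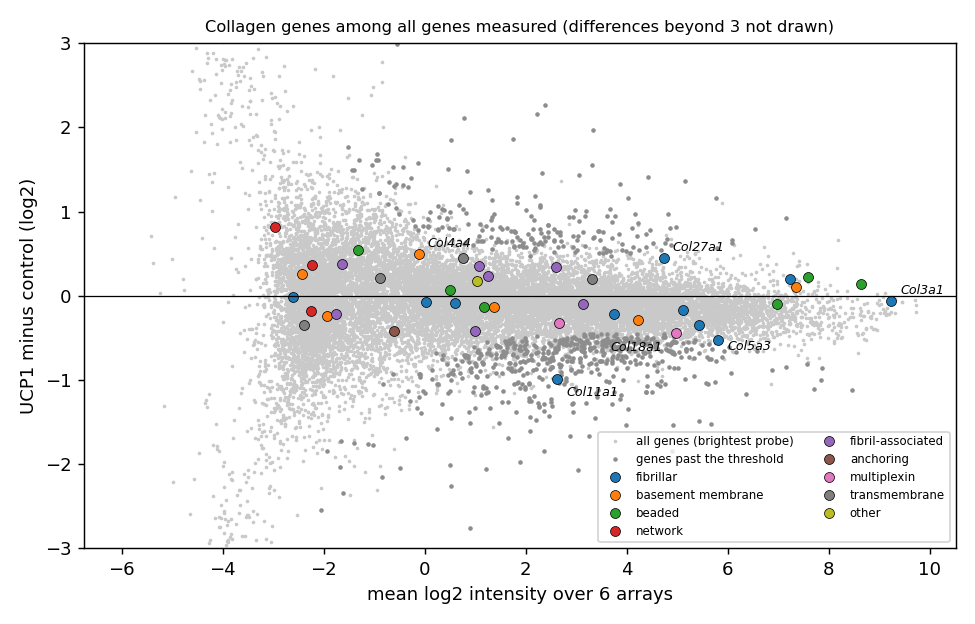
Difference between UCP1 and control against mean log2 intensity, for the genes on the array (grey, darker where past the threshold, those beyond 3 in either direction not drawn) and the 41 collagen genes coloured by type. Col11a1, at -0.99, is the 1 collagen gene among the called genes, while Col3a1, at the bright end, lies at -0.06.

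Second probes give a reading that the choice of the brighter probe did not use. Of the 12 collagen genes with 2 probes, 8 had both on the same side of 0 and 4 on opposite sides, namely Col14a1, Col19a1, Col25a1 and Col6a2. Of the 12 dimmer probes 1 passed the threshold, that of Col5a1. In 5 of the 12 genes, namely Col23a1, Col27a1, Col5a1, Col6a2 and Col6a4, both probes lay at or above the median probe, and among these only Col6a2 had opposite signs, at 0.14 and -0.05.

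Several collagen genes are neighbours, and the signs of their differences are given as a description. On RefSeq's map of GRCm38.p6, 8 pairs of collagen genes had no protein-coding gene starting between them. The differences had the same sign in Col4a4 and Col4a3 (0.50 and 0.25), Col6a6 and Col6a5 (0.06 and 0.54), and Col4a6 and Col4a5 (-0.24 and -0.13). They had opposite signs in Col9a1 and Col19a1 (-0.42 and 0.38), Col3a1 and Col5a2 (-0.06 and 0.20), Col6a2 and Col6a1 (0.14 and -0.10), Col4a1 and Col4a2 (0.10 and -0.29), and Col6a5 and Col6a4 (0.54 and -0.13). None of these 15 genes passed the threshold. Each sign is that of the gene's brightest probe. The other probes of Col19a1, at -0.72, and Col6a2, at -0.05, had the sign of their neighbours Col9a1 and Col6a1.

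Genes that modify, cross-link, bind or cleave collagen were read in the same fit, in which 1.13% of all genes passed higher and 2.92% lower. These lists are short, so their counts are a description. Of 19 genes of collagen folding and modification 1 rose and 2 fell, with a median of -0.03. Plod1, a lysyl hydroxylase, fell by 1.20 on the log2 scale on its brighter probe, from 20.2, 14.2 and 14.7 in controls to 6.27, 8.97 and 6.19 in UCP1 (limma, adjusted p = 0.00491). Its other probe differed by 0.01, so the Plod1 probes disagreed. Plod2, the lysyl hydroxylase of the telopeptides, fell by 1.26 (limma, adjusted p = 0.0142) from 1.63, 0.968 and 1.28 to 0.541, 0.530 and 0.519. The Plod2 probe lay below the median probe. P4ha3, a prolyl hydroxylase subunit that is dim here, rose by 1.30 (limma, adjusted p = 0.0138), from 0.462, 0.336 and 0.474 to 1.04, 0.939 and 1.13. All of these calls were lost without UCP1 array 3, at adjusted p = 0.11 for P4ha3, 0.0607 for Plod1 and 0.0909 for Plod2, and that of Plod2 also without control array 1 (0.0707).

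In procollagen processing and cross-linking 3 of 11 genes rose and 0 fell, and the list's median difference was 0.27. Lox and Loxl3, which oxidise lysines so that collagen chains bond, rose 1.95-fold and 1.75-fold. Lox read 14.3, 12.0 and 12.3 in controls and 27.7, 24.3 and 23.3 in UCP1 (limma, adjusted p = 0.00217), and Loxl3 read 14.6, 12.9 and 11.7 and then 24.5, 22.4 and 21.7 (adjusted p = 0.0058). Bmp1, which removes the C-terminal propeptide, rose 1.38-fold (limma, adjusted p = 0.0489), a call lost without any single array except UCP1 array 1. The range of adjusted p for Bmp1 in those fits was 0.0676 to 0.168, and it was 0.0748 with the replicate number as a block.

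Matrix genes that partner with collagens moved in both directions. Of 21 fibril-associated partners 2 rose and 1 fell, with a median of 0.12. The small proteoglycans Dcn and Lum, which bind collagen fibres, rose 1.73-fold and 1.87-fold (limma, with adjusted p = 0.0234 and 0.0286), and Abi3bp fell by 0.92 on the log2 scale (adjusted p = 0.012). The rises of Dcn and Lum were lost without some single arrays, control arrays 1, 2 and 3 for Dcn (limma, adjusted p 0.0543 to 0.0991) and control arrays 2 and 3 and UCP1 array 3 for Lum (0.0743 to 0.142), and Lum was at 0.0508 with the replicate number as a block. The fall of Abi3bp was lost without control array 2 (0.0518) and without UCP1 array 3 (0.0758). Of 16 basement membrane partners 1 rose, Nid2, which links laminin to type IV collagen. Nid2 read 10.1, 9.16 and 7.64 in controls and 22.3, 16.5 and 16.5 in UCP1, a rise of 2.05-fold (limma, adjusted p = 0.00527). Of 14 collagenases and inhibitors 2 rose, Mmp2 by 0.63 and Timp4 by 0.86 in log2 intensity (limma, with adjusted p = 0.0216 and 0.0066), the former lost without any 1 control array or without UCP1 array 3 (adjusted p 0.0506 to 0.107). Of 8 measured collagen receptors 0 passed, with Ddr1 at -0.31 and Itga11 at 0.24. Of 19 genes of TGF-beta signalling and collagen gene control 1 fell, Smad2, by 0.59 (limma, adjusted p = 0.0231), lost after quantile normalization (0.0516) and without control array 1, control array 2 or UCP1 array 3 (0.078 to 0.123). The median of that list was -0.33, with 5 genes above 0 and 14 below, against 7186 and 10828 of all genes. An unadjusted p under 0.05 (limma) was found in 9 of its 19 genes, against 3746 of all 18014. Tgfb3, at 0.52, and Cebpb, at -0.59, did not pass (limma, adjusted p = 0.0522 and 0.0539). Medians of the basement membrane, collagenase and receptor lists were 0.16, 0.08 and -0.07.

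**Figure D5:**
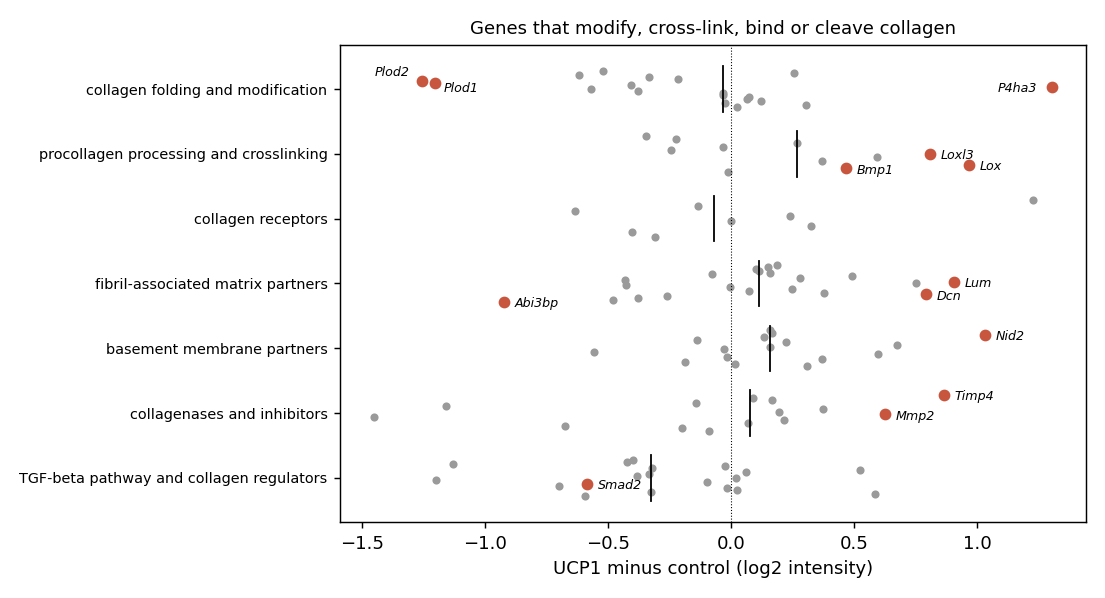
Difference between UCP1 and control in log2 intensity for the measured genes of 7 lists around collagen, 1 point a gene, with each list's median as a vertical bar. Coloured and named points passed the threshold, among them Lox, Loxl3 and Bmp1, at 0.97, 0.81 and 0.47, with no member of that list called lower.

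Markers of cells that could contribute collagen were read beside these results. The arrays measure mixed RNA, so fewer cells of a type and less RNA per cell cannot be told apart. The marker counts stand against the same background shares. Of 5 measured adipocyte markers 1 rose, Lep, and Adipoq, Fabp4, Lpl and Retn lay between -0.12 and -0.02. The readings of Lpl and Adipoq reached the highest value on UCP1 arrays 1 and 2, 950 and 921, so these markers sat at the top of the measured scale, and no steadiness is read from them. Of 9 preadipocyte and fibroblast markers 4 rose, Pdgfra, Thy1, Dcn and Lum. Fn1, Vim and Cd34 of that list lay at -0.43, -0.13 and -0.29 and Pdgfrb and Dlk1 at 0.52 and 0.34, and the summed intensity, to which Vim and Fn1 gave the most, was 507 to 572 in controls and 529 to 706 in UCP1. Of 6 smooth muscle and myofibroblast markers 2 fell, Acta2 and Myh11, with sums of 53.2 to 57.1 in controls and 40.8 to 48.8 in UCP1. In that list Tagln, Des and Cnn1 lay at -0.61, -0.60 and -0.01, and Mylk at 0.48 with no overlap between groups (limma, adjusted p = 0.0651). Of 5 chondrocyte markers 1 fell, Comp, with sums of 6.37 to 7.30 in controls and 4.75 to 5.38 in UCP1. Acan lay at 0.35 with no overlap between groups, and Sox9, Matn1 and Snorc were below the median probe. Of 4 osteoblast markers 2 fell, Ibsp and Alpl, with sums of 5.82 to 6.86 in controls and 2.82 to 3.04 in UCP1, while Sp7 and Dmp1, both below the median probe, lay at 0.47 and 0.65. Comp, Ibsp and Alpl thus fell beside Col11a1, a chain of cartilage and bone matrix, while Acan, Sp7 and Dmp1 were above 0, and the part of these cell types in its fall was not tested. All 7 endothelial and 4 epithelial markers were below the median probe, with 0 calls. The macrophage list had 1 call among 5, Lyz2, which rose, with Adgre1, Ptprc and Itgam below the median probe, Cd14, which gave most of the sum, at -0.22, and sums of 11.0 to 16.2 in controls and 13.8 to 14.9 in UCP1. No detection mark was used, so whether a dim marker was at 0 cannot be read.

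The genes outside the collagens whose pattern over the 6 arrays was most like the mean of the 9 fibrillar collagens at or above the median probe were Glmp, Plod3, Etfdh, Slc25a23 and Abca2. Their Pearson r ran from 0.992 to 0.997 over 6 arrays, among 10729 genes compared, and is given as a description. The points share arrays and scaling. Plod3, which hydroxylates and glycosylates collagen lysines, differed by -0.21 between the groups.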

How the data were processed

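The authors deposited 1 table of scaled spot intensity for 6 one-colour CodeLink mouse whole genome arrays with biotin-labelled RNA, per the labels. The sources used here name no scanner software, background correction or scaling. By its values, intensity was linear and each array's median was near 1, and a code of -9999 was treated as missing. Values at or below 0 (80 to 159 an array) were raised to the array's smallest positive value before log2.

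The comparison used limma 3.58.1 (R 4.3.3; lmFit, eBayes with intensity trend, two-sided) over 36116 probes with at least 2 values a group, with Benjamini-Hochberg adjustment over all of them. Gene names came from the platform annotation, where 21615 probes had 1 symbol, 681 several and 13931 none, and 21487 matched RefSeq by gene identifier. On simulated arrays of 36062 probes for this comparison, with changes placed on probes at or above the median, 17% of changes of 0.5, 78% of changes of 1 and 100% of changes of 2 on the log2 scale were recovered.

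Collagen genes, types, pathway lists and marker lists were chosen with earlier results of these data known. Named genes were the called members, the 3 brightest of each type, chains of one molecule, and from each list up to 4 called members or the 2 with the smallest p. Alternatives are given in the closing section.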

Additional observations from a re-analysis of the deposited data

How the results depend on the processing

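None of the 40 collagen genes other than Col11a1 passed the threshold, and over the alternatives they gave 506 values, of which 499 also did not pass, 7 newly passed and 0 passed with the opposite sign. Collagen genes called higher numbered 2 after quantile normalization (Col27a1 and Col6a2) and 1 when the brighter probes alone were tested (Col23a1), against 0. Those called lower numbered 0 without the intensity trend, 2 with a gene's probes averaged and 0 to 3 with 1 array left out, against 1. Probes called numbered 1021, and 2239 with brighter probes alone, 0 without the trend, and 159 (without UCP1 array 3) to 1894 (without UCP1 array 1 or 2) with 1 array left out. Called higher were 289 of 36116 probes, 567 of 36116 after quantile normalization and 523 of 18058 with brighter probes alone. Called lower were 732 of 36116 probes, and 589 of 18014 genes with probes averaged. With 1 array left out, 93 of 36097 (without UCP1 array 3) to 1610 of 36102 probes (without UCP1 array 1) were called lower. The 3 collagen genes called lower came without UCP1 array 1.

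Quantile normalization gave medians of 0.083 over collagens, 0.13 for basement membrane, 0.33 for beaded and -0.25 for multiplexin types. Brighter probes alone gave -0.13 for basement membrane and 0.32 for transmembrane types, and averaged probes gave -0.073 for transmembrane types. The former setting left each gene's difference unchanged and kept only 3 basement membrane and 2 transmembrane genes. Averaging took in the second Col25a1 probe, at -1.16. With 1 array left out the medians ran from -0.070 to 0.040 over collagens, -0.26 to -0.090 for fibrillar, -0.13 to 0.071 for basement membrane, 0.0018 to 0.13 for beaded, 0.14 to 0.31 for fibril-associated and 0.068 to 0.30 for transmembrane types.

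Without the trend Col11a1 stayed at -0.99 (limma, adjusted p = 0.277) and Ucp1 at 3.00 (adjusted p = 0.0855). With 1 array left out Col11a1 ran from -1.19 to -0.77. Beyond the changes of gene set and of probes given above, the cause of these shifts was not tested. Among the lists around collagen, quantile normalization gave 4 fibril-associated partners called higher in place of 2, 2 basement membrane partners in place of 1, 2 folding genes in place of 1, and 1 higher and 0 lower in the TGF-beta list in place of 0 and 1. Brighter probes alone gave 3 fibril-associated partners called lower in place of 1. In the TGF-beta list, brighter probes alone, the offset before log2 and limma's robust eBayes each gave 1 higher and 2 lower. With 1 array left out, that list's genes called lower ran from 0 to 3. With 1 array left out, fibril-associated partners called higher fell to 0 without control array 2 or 3. With the replicate number as a block, 776 probes passed and Col11a1 stayed at -0.99 (adjusted p = 0.0307). Same-numbered arrays deviated from their group means with correlations of -0.24, -0.01 and 0.10, so the numbers were not taken to pair the arrays. Signal limits the dimmer genes, and 3 arrays a group limit all of them.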
